A study of Homo sapiens with 6 samples.

Results

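The genes described here carry the response of a cell to unfolded protein in the endoplasmic reticulum (ER) and the integrated stress response that branches from it. They were named by function: 38 genes, of which 37 were measured by an array feature annotated with 1 gene symbol, out of 16704 genes measured that way. The gene left out is PDIA3, a protein disulfide isomerase, whose features also carry the symbol of a pseudogene. The 37 genes fall into 13 ER chaperones and folding enzymes, 4 genes of ER-associated degradation, 7 stress sensors and membrane-bound transcription factors, and 13 genes of the ATF4 arm.

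The study compared LNCaP cells, an androgen-responsive human prostate cancer line, stably transfected with a short hairpin RNA against MBD2, with LNCaP cells carrying a scrambled hairpin. MBD2 binds methylated CpG dinucleotides and recruits a repressor complex. Each group held 3 separate stable clones, selected by neomycin resistance and grown in T-Medium with fetal calf serum, with 1 Affymetrix Gene ST array of cytoplasmic RNA per clone. The labels name no agent added to provoke stress. All values are log2 expression, and a log2 fold change is knockdown minus control.

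A set of 3 branches starts at the ER membrane when unfolded protein accumulates. IRE1 (gene ERN1) splices the messenger of XBP1, ATF6 is cut free in the Golgi to enter the nucleus, and PERK (EIF2AK3) phosphorylates the initiation factor eIF2, which slows translation at large but favours that of ATF4. XBP1 and ATF6 raise chaperones and degradation factors. ATF4 raises genes of amino acid supply and the factors DDIT3 (CHOP), TRIB3 and CHAC1. Splicing, cleavage, phosphorylation and translation are not seen by a gene-level array, so only their effects on RNA levels can appear here. Secretory cells such as prostate luminal cells keep the chaperones at high levels.

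Promoters of chaperones can carry elements through which ATF6 and XBP1 act, and these are shown as a description of sequence that uses no expression value. The genes were named by function, so the shares below are not a test of the 2 arms. Of the 13 chaperones, 6 had neither of the 2 ERSE forms described below. RefSeq promoters (build GRCh38.p14) matched 37 of the 37 genes by gene identifier, and the 250 bases before the start were searched on both strands. In 7 genes that window lies inside the annotated gene, since other transcripts begin further upstream. These are CANX, PDIA6, EIF2AK3, CREB3L1, CREB3L4, TRIB3 and ASNS. The ER stress response element ERSE, spelled CCAAT, 9 bases, CCACG, was present before 5 of 13 chaperones (38.5%) and before 0 of 13 genes of the ATF4 arm, against 0.127% of 13351 promoters of measured genes and 0.0806% of all 27305 listed promoters. Capitals mark the element, which on the opposite strand reads CGTGG, 9 bases, ATTGG.

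HSPA5, chr9:125241376-125241424, minus strand: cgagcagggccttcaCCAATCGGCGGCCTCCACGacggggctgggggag

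HSP90B1, chr12:103930212-103930343, plus strand: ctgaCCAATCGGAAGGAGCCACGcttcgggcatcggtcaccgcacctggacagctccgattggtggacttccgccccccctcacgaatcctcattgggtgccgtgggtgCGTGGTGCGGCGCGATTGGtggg

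CALR, chr19:12938369-12938417, plus strand: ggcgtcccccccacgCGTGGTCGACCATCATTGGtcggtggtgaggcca

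CANX, chr5:179698773-179698801, plus strand: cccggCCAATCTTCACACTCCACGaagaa

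CRELD2, chr22:49918539-49918587, plus strand: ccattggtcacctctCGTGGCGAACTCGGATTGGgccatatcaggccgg

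XBP1, chr22:28800588-28800636, minus strand: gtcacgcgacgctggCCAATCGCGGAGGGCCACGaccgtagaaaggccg

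HSP90B1 holds 2 copies, 1 in each orientation, and XBP1 was the 1 sensor gene with a match. The shorter ERSE-II, spelled ATTGG, 1 base, CCACG, was found before 2 chaperones, SDF2L1 and HYOU1, and before the degradation gene HERPUD1, against 0.0824% of promoters of measured genes. HYOU1 has it in 2 places. The UPRE, TGACGTGG, was found before HYOU1 alone among the 37 genes, against 0.734% of promoters of measured genes, and it overlaps the first ERSE-II there.

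SDF2L1, chr22:21642099-21642139, plus strand: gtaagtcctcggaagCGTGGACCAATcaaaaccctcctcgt

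HYOU1, chr11:119057259-119057405, minus strand: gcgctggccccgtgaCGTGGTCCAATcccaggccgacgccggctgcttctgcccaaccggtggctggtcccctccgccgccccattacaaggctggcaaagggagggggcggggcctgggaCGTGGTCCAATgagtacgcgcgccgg

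HERPUD1, chr16:56932010-56932050, plus strand: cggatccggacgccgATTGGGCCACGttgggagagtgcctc

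The C/EBP-ATF response element through which ATF4 acts was searched as TGATGNAA. It was found before ATF3, CHAC1 and ASNS, 3 of 13 genes of the ATF4 arm (23.1%), and before 0 of 13 chaperones, against 2.12% of promoters of measured genes. HERPUD1 also has a match. The windows hold only the bases nearest the start, so a gene without a match here can carry an element elsewhere.

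ATF3, chr1:212565206-212565233, plus strand: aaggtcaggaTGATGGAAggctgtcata

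CHAC1, chr15:40953252-40953279, plus strand: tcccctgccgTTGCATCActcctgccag

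ASNS, chr7:97872459-97872486, minus strand: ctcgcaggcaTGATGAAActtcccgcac

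The array medians lay between 6.32 and 6.35. MBD2 itself averaged 7.78 ± 0.08 in knockdown clones and 9.06 ± 0.29 in control clones (SD, n = 3 each), and the groups did not overlap. Its exact two-sided permutation p was 0.1, the smallest that 3 against 3 allows. Of 10 markers fixed for LNCaP and luminal prostate cells 6 were measured. KRT8, KRT18 and EPCAM stood at 9.99 or higher on every array, and KLK2 and HOXB13 between 8.03 and 8.93. KLK3 (PSA) varied between clones, with 8.66, 10.30 and 10.44 in knockdown clones 1, 2 and 3, against 8.67, 10.12 and 8.48 in control clones 1, 2 and 3. Of 14 markers of other cell types 13 were measured, and their mean level was 4.51, 4.43 and 4.41 in knockdown clones, against 4.41, 4.41 and 4.38 in control clones. They ranged from 2.43, for the leukocyte gene PTPRC, to 7.44, for the collagen gene COL1A1. COL1A1 alone stood above the array medians, and the muscle gene DES, the basal keratin KRT14 and the collagen gene COL3A1 lay between 5.22 and 5.86. Values on the array of knockdown clone 1 were less spread out (SD over features 2.05, against 2.10 to 2.12 on the other arrays), and results that rest on it are given with and without it.

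Over all genes limma called 0 of 16704 (0.0%) after adjustment at a threshold of 0.05, and so did a plain test of equal variances. At an unadjusted p under 0.05 limma gave 657 higher genes (3.93%) and 911 lower genes (5.45%), and the plain test gave 1409 in all. Among the 37 stress genes 1 was higher at that level, CREB3L1, and 2 were lower, CRELD2 and DDIT4. Those shares are near the background, and none of the 37 passed after adjustment. The knockdown clones lay wholly above the control clones in 3 of them (CREB3L1, SEL1L and ERN1) and wholly below in 4 (CALR, CRELD2, ATF6 and SESN2), against 6.57% and 8.87% of all genes. The log2 fold changes of the other 34 genes, without CREB3L1, CRELD2 and DDIT4, ran from -0.31 to 0.25.

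**Figure D1:**
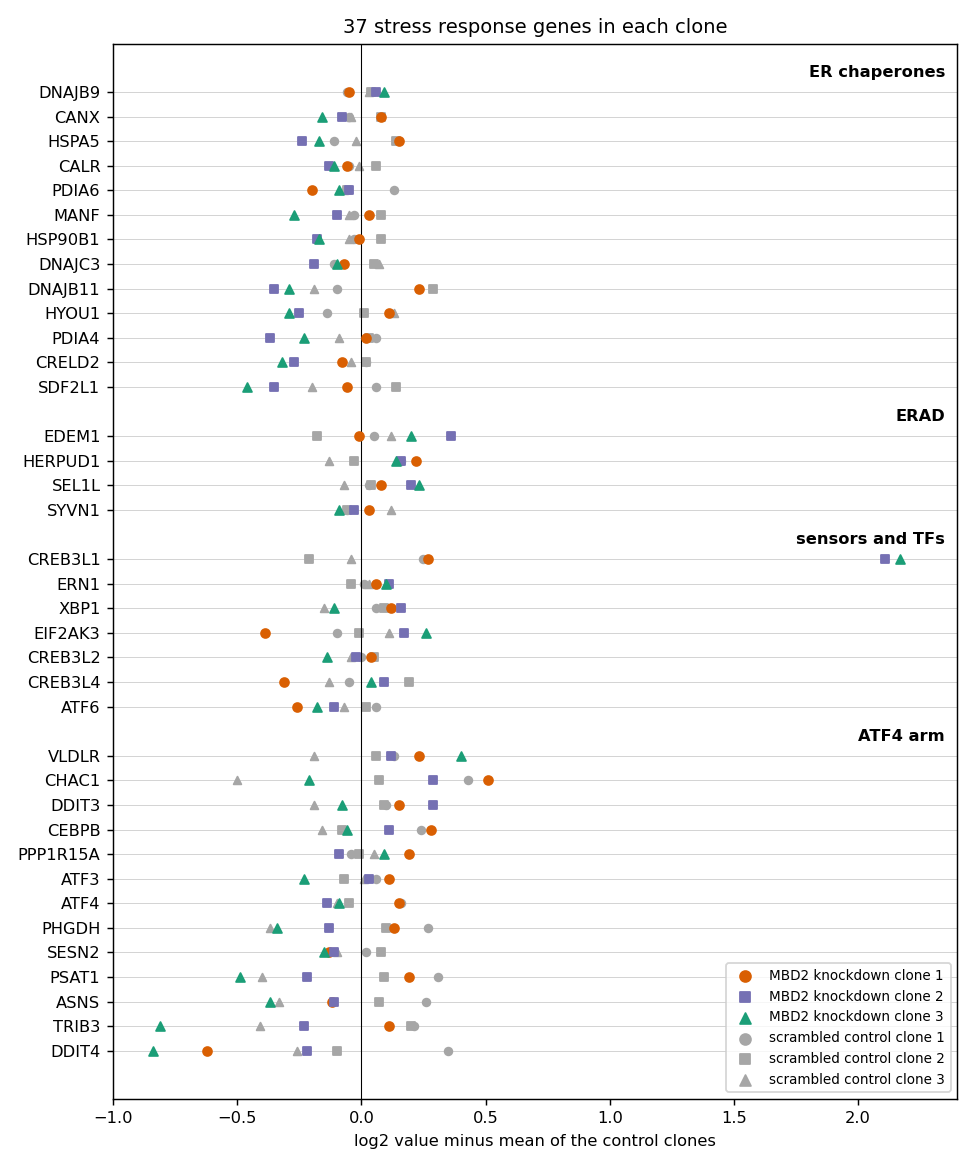
Log2 value of each of the 37 genes in every clone minus the mean of the control clones, with coloured symbols for knockdown clones 1 to 3 and grey symbols for control clones 1 to 3. CREB3L1 stands 2.11 and 2.17 above the control mean in knockdown clones 2 and 3 and 0.27 above it in clone 1, while no other gene lies as much as 1 from the control mean in any clone.

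The ER chaperones were slightly lower on average in the knockdown clones, but no single one passed after adjustment. Of 13 means 12 were lower, and the median log2 fold change was -0.12, beside 51.3% of all genes with a lower mean and a median of -0.0043 over all genes. Chaperone genes share regulators, so 13 genes are not 13 independent observations. The 5 chaperones with an ERSE had log2 fold changes between -0.22 and -0.05, and the 8 without one between -0.29 and 0.03.

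CRELD2, an ER protein with disulfide isomerase activity that is secreted under stress, stood at 7.57, 7.39 and 7.33 in knockdown clones 1, 2 and 3, against 7.68, 7.67 and 7.62 in control clones 1, 2 and 3. The groups did not overlap, but knockdown clone 1 lay just below the lowest control clone. Its log2 fold change was -0.22 (SE 0.09, 95% interval -0.43 to -0.02), with an adjusted p of 0.494. SDF2L1, a part of the ER chaperone complex around HSPA5, had 7.37, 7.08 and 6.97 in knockdown clones, against 7.49, 7.57 and 7.23 in control clones. Knockdown clones 2 and 3 lay below all controls and clone 1 among them. The log2 fold change of SDF2L1 was the lowest of the chaperones, -0.29 (SE 0.14, 95% interval -0.61 to 0.03, adjusted p = 0.571).

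PDIA4, a protein disulfide isomerase, had 9.14, 8.75 and 8.89 in knockdown clones, against 9.18, 9.14 and 9.03 in control clones, a log2 fold change of -0.19. Here too clones 2 and 3 lay below every control and clone 1 did not. DNAJC3, a co-chaperone also known as an inhibitor of eIF2 kinases, had 7.63, 7.52 and 7.61 in knockdown clones, against 7.59, 7.75 and 7.78 in control clones. The low value of control clone 1 makes the groups overlap. HSPA5 (BiP), the HSP70 chaperone that holds the 3 sensors inactive, had 10.79, 10.41 and 10.48 in knockdown clones, against 10.53, 10.78 and 10.62 in control clones. Its highest value belonged to knockdown clone 1, and its log2 fold change was -0.09 (95% interval -0.37 to 0.20, adjusted p = 0.876).

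The other chaperones were close to the control level in their group means. HSP90B1 (GRP94), the HSP90 of the ER, averaged 11.64 ± 0.10 in knockdown clones and 11.76 ± 0.07 in control clones (SD, n = 3 each). CALR, the lectin chaperone calreticulin, averaged 11.28 ± 0.04 in knockdown clones and 11.38 ± 0.06 in control clones, without overlap. Its membrane-bound relative CANX averaged 10.73 ± 0.12 in knockdown clones and 10.78 ± 0.07 in control clones. Each of these 3 abundant chaperones therefore differed by 0.12 or less on the log2 scale. The log2 fold changes were -0.14 for HYOU1, an ER HSP110 that exchanges the nucleotide of HSPA5, -0.13 for the HSPA5 partner DNAJB11, -0.11 for the disulfide isomerase PDIA6 and -0.11 for MANF, a secreted HSPA5 cofactor. Relative to the control mean, HYOU1 stood at 0.11, -0.25 and -0.29 in knockdown clones 1, 2 and 3, and DNAJB11 at 0.23, -0.35 and -0.29. MANF stood at 0.03, -0.10 and -0.27, while PDIA6 was lowest in clone 1, at -0.20, -0.05 and -0.09. DNAJB9, a co-chaperone that keeps IRE1 inactive, was the 1 chaperone with a higher mean, at 0.03.

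The knockdown clones differed among themselves in the chaperones. Taken over the 13 genes, the deviation from the control level averaged 0.01 in knockdown clone 1, -0.19 in clone 2 and -0.20 in clone 3, against -0.03, 0.07 and -0.04 in control clones 1, 2 and 3. In knockdown clones 2 and 3, 12 of 13 chaperones lay below the control mean, and in clone 1 it was 7 of 13. Knockdown clone 1 was the highest of the knockdown clones in 11 of 13 chaperones (84.6%), beside 51.2% of all genes. In lists described below this share was 61.5% for the ATF4 arm, 63.6% for the translocon genes and 76.9% for the aminoacyl-tRNA synthetases. It was 22.5% for the other ER folding enzymes and cochaperones. Without knockdown clone 1, CRELD2 (-0.30), SDF2L1 (-0.41), PDIA4 (-0.30) and HYOU1 (-0.27) were lower at an unadjusted p under 0.05, as were 9.12% of all genes in that fit. None of these 4 had an adjusted p under 0.05 there, where 0.419% of all genes did.

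The 4 genes of ER-associated degradation, which pulls misfolded proteins out of the ER for the proteasome, mostly had higher means in the knockdown clones, 3 of 4, with a median log2 fold change of 0.17. Of 32 other degradation genes 23 had a lower mean, with a median of -0.043, so the higher means do not extend to the wider set. The difference from the chaperones was not tested. SEL1L, the scaffold of the degradation ligase, had 8.33, 8.44 and 8.47 in knockdown clones, against 8.27, 8.29 and 8.18 in control clones. All knockdown values lay above all control values, by as little as 0.03, and the log2 fold change was 0.17 (SE 0.08, adjusted p = 0.584). HERPUD1, which recruits substrates to that ligase, had 8.85, 8.79 and 8.77 in knockdown clones, against 8.79, 8.60 and 8.51 in control clones.

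Control clone 1 reached the level of the knockdown clones for HERPUD1. EDEM1, a lectin that marks glycoproteins for degradation, had 7.81, 8.17 and 8.01 in knockdown clones, against 7.87, 7.64 and 7.94 in control clones, with overlap. SYVN1 (HRD1), the ubiquitin ligase itself, had 7.63, 7.57 and 7.51 in knockdown clones, against 7.54, 7.54 and 7.73 in control clones. The log2 fold changes of HERPUD1, EDEM1 and SYVN1 were 0.17, 0.18 and -0.03. Over all 4 genes the average deviation from the controls was 0.08, 0.17 and 0.12 in knockdown clones 1, 2 and 3, against 0.04, -0.06 and 0.01 in control clones. Without knockdown clone 1, SEL1L (0.21) and EDEM1 (0.28) were higher at an unadjusted p under 0.05, as were 6.87% of all genes in that fit, and neither passed after adjustment.

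Among the sensors and membrane transcription factors 1 gene stood out by size. CREB3L1 (OASIS), a transcription factor anchored in the ER membrane and released by cleavage as ATF6 is, had 5.70, 7.53 and 7.59 in knockdown clones 1, 2 and 3, against 5.68, 5.22 and 5.38 in control clones 1, 2 and 3. Relative to the control mean this was 1.21-fold in clone 1, 4.31-fold in clone 2 and 4.49-fold in clone 3. Clones 2 and 3 lay far above the rest, while clone 1 exceeded the highest control clone by 0.02, so the groups are apart by that margin alone.

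Over all clones the log2 fold change of CREB3L1 was 1.52 (SE 0.47, 95% interval 0.42 to 2.61) and the adjusted p 0.398 in limma. Without knockdown clone 1 it was 2.14 with an adjusted p of 0.0056, the 1 gene of the 37 to pass in that fit, in which 0.419% of all genes passed. That fit rests on knockdown clones 2 and 3, the pair of arrays most alike (SD of their difference over genes 0.185, against 0.224 to 0.35 for the other pairs). With clones 2 and 3 averaged as 1 replicate beside clone 1, the log2 fold change was 1.2 and the adjusted p 0.74. MBD2 stood at 7.68, 7.84 and 7.81 in knockdown clones 1, 2 and 3, a range too narrow to show whether CREB3L1 follows it. KLK3 also separated knockdown clone 1 from clones 2 and 3, though control clone 2 shared its higher level, and whether this is linked to CREB3L1 was not tested.

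The relatives of CREB3L1 showed no such difference. CREB3L2, which serves secretory load in cartilage of mice, averaged 8.04 ± 0.09 in knockdown clones and 8.07 ± 0.05 in control clones (SD, n = 3 each). CREB3L4, a family member rich in prostate, had 8.24, 8.64 and 8.59 in knockdown clones, against 8.50, 8.74 and 8.42 in control clones, with the lowest value in knockdown clone 1. COL1A1, the type I collagen gene that mouse CREB3L1 activates in bone-forming cells, was chosen here after its values were seen. It had 7.11, 7.44 and 7.44 in knockdown clones 1, 2 and 3, against 7.10, 7.04 and 7.11 in control clones, so it too was higher in clones 2 and 3 and at the control level in clone 1. Its log2 fold change was 0.24 (SE 0.11, adjusted p = 0.545), and whether it is linked to CREB3L1 was not tested. COL3A1, the other collagen gene among the markers, did not share this split. It had 5.61, 5.22 and 5.37 in knockdown clones 1, 2 and 3, against 5.29, 5.30 and 5.32 in control clones.

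**Figure D2:**
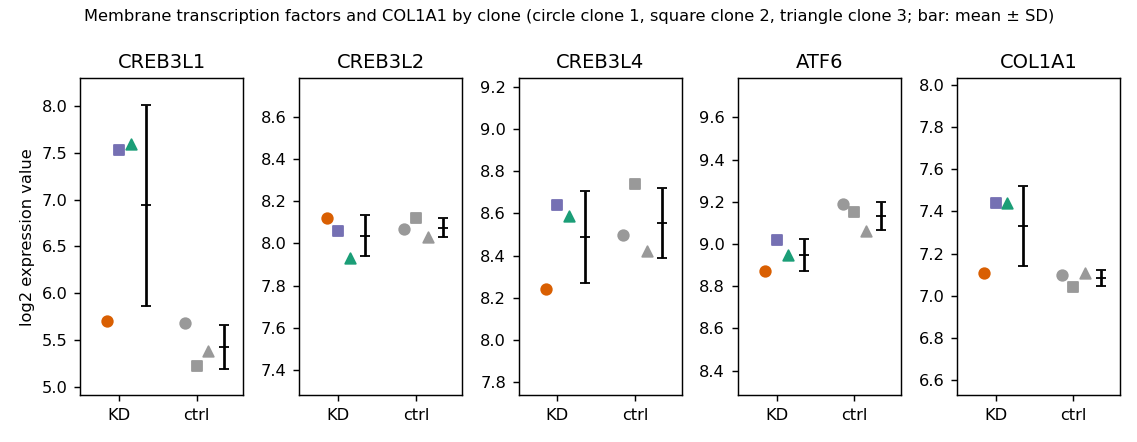
Log2 expression of CREB3L1, CREB3L2, CREB3L4, ATF6 and COL1A1 in each knockdown (KD) and control (ctrl) clone, with mean ± SD per group (n = 3 each). CREB3L1 reads 7.53 and 7.59 in knockdown clones 2 and 3 and 5.70 in clone 1, and COL1A1 reads 7.44, 7.44 and 7.11 in the same clones.

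The 3 classical sensors and XBP1 were near the control level in their group means. ATF6 had 8.87, 9.02 and 8.95 in knockdown clones, against 9.19, 9.15 and 9.06 in control clones, the groups not overlapping, with a log2 fold change of -0.18 (SE 0.08, adjusted p = 0.548). ERN1 had 7.05, 7.10 and 7.08 in knockdown clones, against 7.0, 6.95 and 7.02 in control clones, also without overlap but only 0.09 apart in the mean. XBP1 had 9.81, 9.85 and 9.59 in knockdown clones, against 9.75, 9.78 and 9.54 in control clones. Its groups overlapped, and the 95% interval of its log2 fold change, -0.19 to 0.31, covers 0. EIF2AK3 averaged 7.20 ± 0.35 in knockdown clones and 7.19 ± 0.11 in control clones (SD, n = 3 each). Its values were 6.79, 7.36 and 7.45 in knockdown clones 1, 2 and 3, against 7.08, 7.18 and 7.30 in control clones. Knockdown clone 1 was the lowest of all 6, while clones 2 and 3 lay above every control. With 1 clone left out the log2 fold change of EIF2AK3 ran from -0.11 to 0.22.

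In the ATF4 arm the clones differed among themselves more than the groups did. Of its 13 genes 8 had a lower and 5 a higher mean under knockdown, and the median difference was -0.031 on the log2 scale. The groups of 12 overlapped, and SESN2 was the exception. In 13 of 13 the difference between the group means was smaller than the range of the 3 control clones, beside 11 of 13 chaperones (84.6%) and 76.1% of all genes. The median range over the control clones was 0.398 in this arm, against 0.152 for the chaperones and 0.192 for all genes.

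DDIT4 (REDD1), an inhibitor of mTORC1 that is also induced by hypoxia and glucocorticoids, had the largest difference of the arm. It stood at 8.37, 8.77 and 8.15 in knockdown clones, against 9.35, 8.89 and 8.73 in control clones. Knockdown clone 2 lay above control clone 3, so the groups overlapped, and control clone 1 was the highest of all. The log2 fold change was -0.56 (SE 0.20, 95% interval -1.03 to -0.09), 67.8% of the control level, with an adjusted p of 0.447. SESN2, a leucine sensor that restrains the same kinase, had 6.48, 6.50 and 6.46 in knockdown clones, against 6.62, 6.69 and 6.51 in control clones. Its log2 fold change was -0.13, and the nearest values of the groups differed by 0.01.

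VLDLR, a lipoprotein receptor induced through PERK and ATF4, had 6.18, 6.07 and 6.35 in knockdown clones, against 6.08, 6.01 and 5.76 in control clones, a log2 fold change of 0.25 (SE 0.12, adjusted p = 0.564). Knockdown clone 2 lay within the controls. ATF4 itself had 8.20, 7.91 and 7.96 in knockdown clones, against 8.21, 8.0 and 7.95 in control clones, with a log2 fold change of -0.03 (95% interval -0.29 to 0.23). DDIT3, the factor that drives the death branch of the response, had 6.51, 6.65 and 6.27 in knockdown clones, against 6.46, 6.45 and 6.16 in control clones. The lowest value of DDIT3 in each group belonged to clone 3.

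The genes of amino acid supply were lowest in clone 3 of both groups. ASNS, asparagine synthetase, had 9.26, 9.26 and 9.01 in knockdown clones 1, 2 and 3, against 9.64, 9.45 and 9.05 in control clones 1, 2 and 3. PSAT1 and PHGDH, enzymes of serine synthesis, were chosen for display after their values were seen, as were TRIB3 and CHAC1. PSAT1 had 10.27, 9.86 and 9.59 in knockdown clones, against 10.39, 10.17 and 9.68 in control clones. PHGDH had 11.38, 11.11 and 10.90 in knockdown clones, against 11.52, 11.34 and 10.87 in control clones. In all 3 genes the lowest value of each group was that of clone 3, and the difference between the group means was within the spread of either group.

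TRIB3, a pseudokinase that dampens ATF4, and CHAC1, which degrades glutathione, behaved alike in this respect. TRIB3 had 7.48, 7.14 and 6.57 in knockdown clones, against 7.59, 7.58 and 6.96 in control clones. CHAC1 had 8.33, 8.11 and 7.61 in knockdown clones, against 8.26, 7.89 and 7.32 in control clones. Their log2 fold changes had opposite signs, -0.31 for TRIB3 and 0.20 for CHAC1, each with a standard error of 0.26. The remaining members differed little: CEBPB, a transcription factor that pairs with ATF4, had a log2 fold change of 0.11, PPP1R15A (GADD34), the regulator that ends eIF2 phosphorylation, 0.06, and ATF3, a stress-induced repressor, -0.03.

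Clone 3 was the lowest clone of both groups in 9 of 13 genes of the ATF4 arm (69.2%), beside 16.0% of all genes and 3 of 13 chaperones (23.1%). The same held for 11 of 13 measured aminoacyl-tRNA synthetases and their partner XPOT (84.6%) and for 14 of 23 other amino acid synthesis and transport genes linked to ATF4 (60.9%). Among other stress regulators tied to ATF4 the share was smaller, 10 of 26 (38.5%). This count was made after the pattern had been seen in single genes. The number in a clone's name does not tie the clones of the 2 groups together in the labels, and over all genes the deviations of same-numbered clones from their group means correlated at -0.0252, -0.189 and 0.174 for clones 1, 2 and 3. Whether culture density, medium or processing differed between these clones was not tested.

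**Figure D3:**
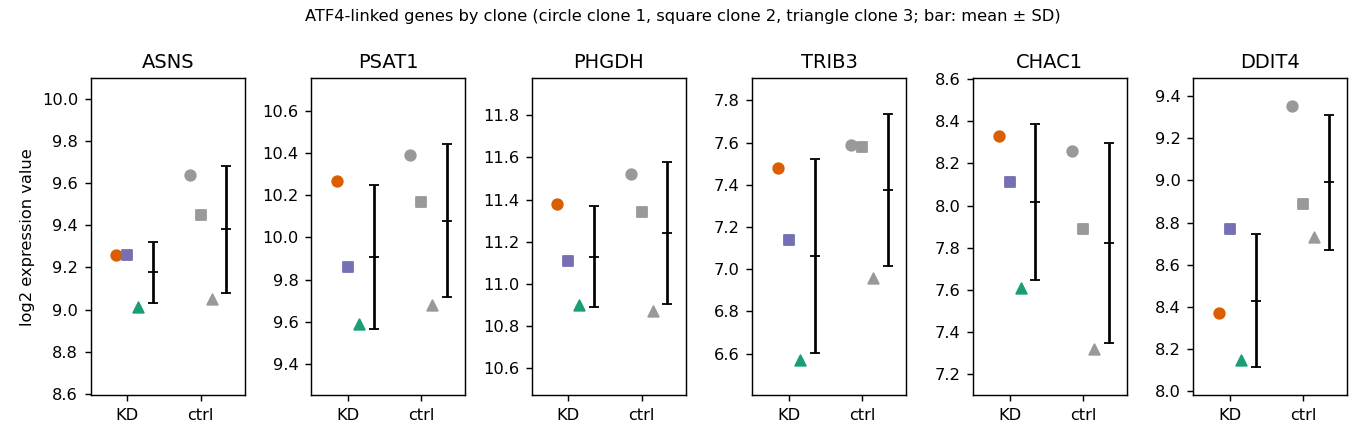
Log2 expression of ASNS, PSAT1, PHGDH, TRIB3, CHAC1 and DDIT4 in each knockdown (KD) and control (ctrl) clone, with mean ± SD per group (n = 3 each). Clone 3 is the lowest of both groups in each of these genes, down to 6.57 in knockdown clone 3 and 6.96 in control clone 3 for TRIB3, and the group ranges overlap in all 6.

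Set against each other by clone, the 2 arms gave no common difference. The ATF4 arm deviated from the control level by an average of 0.09, -0.03 and -0.24 in knockdown clones 1, 2 and 3, against 0.19, 0.03 and -0.23 in control clones 1, 2 and 3. The chaperone mean minus the ATF4 mean was therefore -0.08, -0.16 and 0.05 in knockdown clones, against -0.22, 0.04 and 0.19 in control clones, so the knockdown values lay within the range of the controls. The average difference was -0.06 ± 0.10 in knockdown clones and 0.0 ± 0.21 in control clones (SD, n = 3 each). Without DDIT4 the ATF4 arm averaged -0.02 in knockdown clones, and the difference between the arms was -0.11. In the knockdown group the chaperones separated clone 1 from clones 2 and 3, while the ATF4 arm separated clone 3 from clone 1, with clone 2 between.

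**Figure D4:**
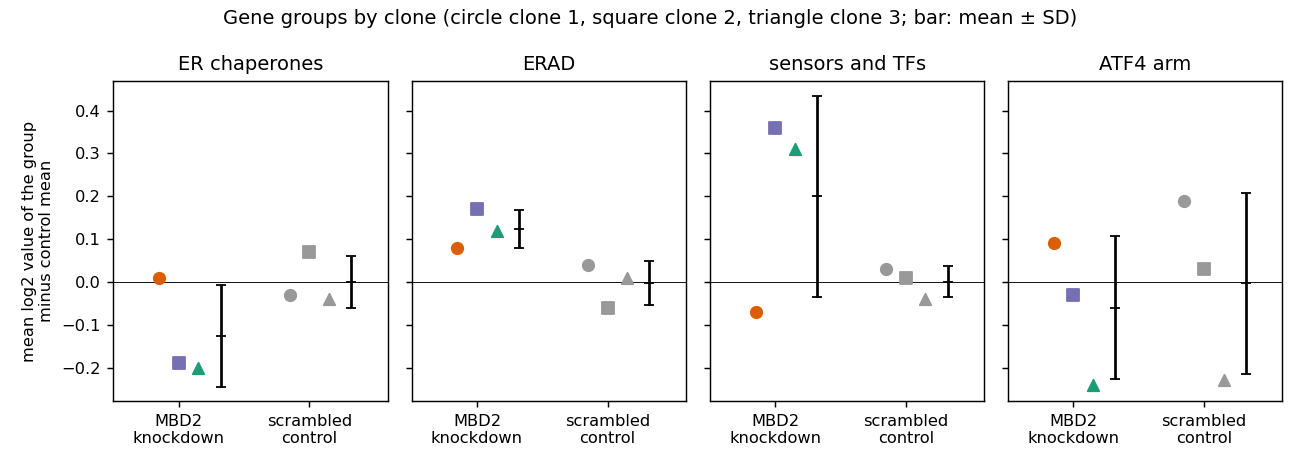
Mean log2 value over the genes of each group in every clone, relative to the control mean, for chaperones, ER-associated degradation (ERAD), sensors and transcription factors (TFs) and the ATF4 arm, with mean ± SD (n = 3 each). Chaperones are lower in knockdown clones 2 and 3 (-0.19 and -0.20) and at 0.01 in clone 1, and the ATF4 arm is lowest in clone 3 of both groups (-0.24 in knockdown and -0.23 in control).

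The wider pathway was read from 9 further lists of genes drawn up by function, in which none of 246 measured genes passed after adjustment. Of these 171 had a lower and 75 a higher mean under knockdown, at a median difference of -0.044 on the log2 scale, beside 51.3% of all genes with a lower mean. At an unadjusted p under 0.05, 15 were lower and 8 higher, near the 5.45% and 3.93% of all genes. The upper quartile over features was 7.85, 7.89 and 7.89 in knockdown clones 1, 2 and 3, against 7.92 in each control clone. Over all 16 alternatives, repeated quantile normalization and cyclic loess among them, the medians of the translocon list and the other degradation genes reached -0.012 and -0.0037. With 1 clone left out these 2 medians rose no higher than -0.053 and -0.036. Whether the lower means of these lists reflect that offset between arrays was not tested. The genes that carry proteins into the ER, namely the translocon, the signal recognition particle, signal peptidase and oligosaccharyl transferase, had lower means in 25 of 33. In 8 of the 33 the knockdown clones lay wholly below the controls, beside 8.87% of all genes, and 5 were lower at an unadjusted p under 0.05, beside 5.45%. SPCS3, a subunit of signal peptidase, had 7.95, 7.94 and 7.85 in knockdown clones, against 8.14, 8.41 and 8.21 in control clones, a log2 fold change of -0.34. SRP54, which binds signal peptides, had -0.29. Both lay below every control clone in all 3 knockdown clones, as did CRELD2 and CALR among the 13 chaperones.

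Of 40 other ER folding enzymes and cochaperones 24 had a lower mean, with a median log2 fold change of -0.02. At an unadjusted p under 0.05, 2 were lower and 1 higher, no larger a share than the 5.45% and 3.93% of all genes. DNAJC1, a membrane co-chaperone of HSPA5, had 7.65, 7.72 and 7.86 in knockdown clones, against 7.97, 8.12 and 8.27 in control clones. The groups did not overlap, with a log2 fold change of -0.38 and an adjusted p of 0.347. RCN1, a calcium-binding ER protein, had -0.26. Of the 32 other degradation genes 2 were lower and 1 higher at that level, again near those shares, led by TMUB2, a ubiquitin-like membrane protein (0.39), and UFD1, a partner of the VCP segregase (-0.25). Of 19 other sensors and partners, BHLHA15 (MIST1), a transcription factor of secretory cells, had 0.24 and ZBTB8OS (Archease), a cofactor of the ligase that joins XBP1 messenger, had -0.24.

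In the lists around ATF4 the largest differences were those of TXNIP, ASS1 and ALDH1L2. ALDH1L2, a mitochondrial folate enzyme, had 4.45, 4.80 and 4.68 in knockdown clones, against 4.12, 4.02 and 3.85 in control clones. All knockdown values lay above all control values, the log2 fold change was 0.65 (SE 0.12, adjusted p = 0.229), and the gene is dim, with control values below the lower quartile of each array (4.71 to 4.83). ASS1, argininosuccinate synthase, had 9.50, 9.86 and 9.59 in knockdown clones, against 9.42, 7.78 and 7.86 in control clones. Control clone 1 lay near the knockdown level there, and the log2 fold change of 1.30 had a standard error of 0.40 and an adjusted p of 0.398. TXNIP, which binds thioredoxin and follows glucose supply, had 9.44, 8.68 and 9.43 in knockdown clones, against 7.44, 8.06 and 8.15 in control clones, without overlap. Its log2 fold change was 1.30 (SE 0.26, adjusted p = 0.229). PMAIP1 (NOXA), which promotes cell death, had -0.49.

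None of 13 aminoacyl-tRNA synthetase and XPOT genes and none of 23 genes of eIF2, its kinases, its exchange factor and its phosphatase had an unadjusted p under 0.05 in either direction. WARS1 and TARS1, the synthetases for tryptophan and threonine, had the smallest p of the first list, with log2 fold changes of -0.14 and 0.12. EIF2AK2 (PKR), the eIF2 kinase that responds to double-stranded RNA, had -0.33, and PPP1CA, a catalytic subunit of protein phosphatase 1, had -0.20. A list of 39 genes held cytosolic and mitochondrial chaperones and 1 ER chaperone, SERPINH1 (HSP47), which is also among the 40 folding enzymes. Of the 39, 28 had a lower mean, beside 51.3% of all genes, with a median of -0.024. The HSP40 gene DNAJB1 had 8.08, 8.12 and 8.17 in knockdown clones, against 7.90, 7.88 and 7.89 in control clones, without overlap, a log2 fold change of 0.23 (adjusted p = 0.398). CRYAB, a small heat shock protein, had 6.24, 7.5 and 7.77 in knockdown clones, against 5.48, 5.78 and 6.68 in control clones, with overlap and a log2 fold change of 1.19.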

How the data were processed

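RNA of 3 MBD2 knockdown clones and 3 scrambled control clones was measured, 1 array each. The deposited table holds log2 values per feature, made by the authors with RMA (background correction, normalization between arrays, probe summary), oligo and limma being named beside it in the submitters' processing notes. The sources used here give no versions, and the log2 scale was taken from the range of the values. Of 19712 features 17334 carry 1 gene symbol. The brightest feature per gene was kept, which left 16704 genes, and each of the 37 genes described has 1 feature. Columns of other samples numbered 0.

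The groups were compared in 1 fit over all genes (R 4.3.3, limma 3.58.1, lmFit followed by eBayes), with Benjamini-Hochberg adjustment over all genes and a threshold of 0.05. The fit was run on simulated data with independent genes and arrays of equal quality. That run cannot show how well small differences are found on these arrays. Dim genes were not filtered out, and every stress gene had a control mean of 4.97 or more, above the lower quartile of every array (4.71 to 4.83). Lists were counted, not tested, and differences between arms carry no p. The clones are separate per the design text. Replicate numbers are shared between groups in the titles. Same-numbered clones did not deviate together by the rule used (each correlation above 0.1), so the unblocked fit was kept.

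The genes described, the lists and the tests were chosen with earlier results of these data known. All 6 values are given for the 4 genes with the smallest p in each of the 4 groups and for HSPA5, XBP1, ATF4, DDIT3, ASNS and ERN1, and the 2 genes with the smallest p are named in each wider list. Other genes named with 6 values were chosen after their values were seen. Promoters come from the RefSeq tables. Python 3.11.15 with pandas 2.3.3 was used.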

Additional observations from a re-analysis of the deposited data

How the results depend on the processing

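With 3 clones a group the number of arrays limits every comparison. Over 591 values of single genes under 16 alternatives, 563 kept their direction and their side of the threshold, 2 passed it and 26 turned direction. Both that passed are CREB3L1, without knockdown clone 1 (2.14, adjusted p = 0.0056) and with array weights (2.06, adjusted p = 0.0223). The weights were 0.252, 3.43 and 0.976 for knockdown clones 1, 2 and 3, so results with array weights rest mainly on knockdown clone 2 in that group. The adjusted p of CREB3L1 ran from 0.0056 to 0.759 over the alternatives.

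Genes past the threshold numbered 0 in the report, 1 after repeated quantile normalization and 1 after cyclic loess, 325 with array weights and 0 to 70 when 1 clone was left out (70 without knockdown clone 1, 7 without control clone 1). Genes at an unadjusted p under 0.05 numbered 1568 in the report, 3331 with array weights and 1088 to 2671 with 1 clone left out. Stress genes lower at that level numbered 2 in the report, 1 after repeated quantile normalization, 1 after cyclic loess, 8 with array weights (all chaperones), 1 with knockdown clones 2 and 3 averaged and 0 to 4 with 1 clone left out. With the replicate block there were 4, SDF2L1 and TRIB3 joining CRELD2 and DDIT4, and the block changed no other call. Same-numbered clones correlated at -0.0252, -0.189 and 0.174, which does not meet the rule used for a pairing. Whether same-numbered clones shared a culture or processing condition was not tested. Stress genes higher numbered 1 in the report, 2 after quantile normalization and in the plain test, 3 after cyclic loess and with array weights, and 1 to 3 with 1 clone left out.

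The chaperone median of -0.12 shrank to -0.08 after repeated quantile normalization. It was -0.18 with array weights and -0.18 to -0.082 with 1 clone left out, and its range over all alternatives was -0.18 to -0.079. The median of the degradation genes was 0.22 after cyclic loess and 0.12 to 0.20 with 1 clone left out. That of the sensors was 0.058 after quantile normalization, 0.089 with array weights and -0.05 to 0.065 with 1 clone left out. The ATF4 median ran from -0.12 to 0.023 and the difference between the arms from -0.18 to 0.028 with 1 clone left out. Over all alternatives the median of the translocon list ran from -0.12 to -0.012 and that of the other degradation genes from -0.06 to -0.0037. The cytosolic and mitochondrial chaperones had -0.072 to -0.00092, the amino acid genes -0.21 to -0.021 and the eIF2 genes -0.069 to -0.017. The synthetases had -0.16 to 0.024, other stress regulators -0.13 to 0.011, other sensors -0.06 to 0.0093 and other folding enzymes -0.036 to 0.015.

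Direction turned in the following genes, none with a difference above 0.20 on the log2 scale in the report. After quantile normalization SYVN1 became 0.021, CREB3L2 0.0096 and ATF4 0.015, and after cyclic loess 0.013, 0.011 and 0.02. With array weights CREB3L4 became 0.028 and PPP1R15A -0.036. With 1 clone left out, the values ran from -0.13 to 0.065 for CREB3L4, -0.11 to 0.22 for EIF2AK3, -0.12 to 0.048 for ATF4, -0.078 to 0.013 for CREB3L2, -0.10 to 0.066 for ATF3, -0.30 to 0.023 for PHGDH, -0.32 to 0.011 for DNAJB11, -0.061 to 0.033 for SYVN1, -0.015 to 0.14 for XBP1 and -0.054 to 0.41 for CHAC1. With knockdown clones 2 and 3 averaged EIF2AK3 became -0.087, ATF4 0.015 and ATF3 0.0031. Leaving DDIT4 out of the ATF4 arm was added after its value was seen. With CCAAT and CCACG anywhere in the window, 11 chaperone promoters matched in place of 5. This looser rule also matched 3 of 4 degradation genes, 2 of 7 sensor genes and 2 of 13 genes of the ATF4 arm. It matched a far larger share of the promoters of measured genes than the spaced ERSE did. The higher chaperone count is therefore not stronger evidence of that element. Causes were not tested.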
